A study of Mus musculus with 14 samples.

Results

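Loss of small RNA processing in the mouse oocyte was examined by comparing 3 RNA-seq libraries labelled *Dicer* KO with 3 labelled *Dicer* WT, which are 6 of the 14 libraries of the series. The libraries were chosen by these labels alone. For each, the raw read counts per RefSeq transcript were used without the summary lines, and a gene was represented by 1 transcript, the one with the highest mean count, which left 20638 genes. All libraries were made from full-grown, GV-intact oocytes, that is, oocytes arrested in the first meiotic prophase with an intact nucleus (germinal vesicle, GV). *Dicer* KO oocytes lacked functional Dicer through an oocyte-specific deletion, so the surrounding somatic cells kept the gene. *Dicer* WT oocytes were wild-type, and whether these females carried floxed alleles is not given in the sources used here. The females were 4 to 6 weeks old, of a mixed background that is mostly C57BL6, and were primed with eCG (equine chorionic gonadotropin, 5 IU), with collection after 48 h. Each library held 20 oocytes pooled from 3 mice by the series design and from 3 to 4 by the methods, stripped of cumulus cells by pipetting, so the spread between libraries is that between pools of animals. *Ago2* ADH oocytes, used here for a single comparison, were set against *Ago2* fl/fl controls. After deletion of the floxed allele they carry 1 *Ago2* allele, which encodes catalytically inactive AGO2. The paper reports strongly reduced but residual cleavage in them, possibly from wild-type AGO2 made earlier, and lower microRNA levels.

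Dicer is the RNase III enzyme that cuts hairpin precursors into microRNAs and long double-stranded RNA into small interfering RNAs (siRNAs). Both kinds of small RNA are loaded into Argonaute proteins, where microRNAs lower the translation and stability of partly matched mRNAs and siRNAs let AGO2 cleave fully matched ones. Mouse oocytes are known for endogenous siRNAs (endo-siRNAs) made from inverted repeats, from overlapping transcripts and from pairs of genes and pseudogenes, and for microRNAs that have little activity once the oocyte is grown. A full-grown oocyte is transcriptionally quiet, so its mRNA reflects what was made and what was destroyed during growth. piRNAs, a further class of germline small RNA, are made without Dicer.

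The sequences of 4 microRNAs that the study assayed in these oocytes stand for the products of Dicer, and are shown because their seeds define the matches counted later in 3′UTRs. They were copied from RefSeq (GRCm38.p6), are written 5′ to 3′, and have the seed, bases 2 to 8, in capitals.
mmu-let-7e-5p: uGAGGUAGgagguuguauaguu
mmu-miR-16-5p: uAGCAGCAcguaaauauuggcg
mmu-miR-20a-5p: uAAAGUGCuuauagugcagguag
mmu-miR-106a-5p: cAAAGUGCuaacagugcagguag
The last 2 share 1 seed and so 1 match, and let-7e and miR-16 have seeds of their own. mmu-miR-30b-5p was assayed as well.

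Counts summed over the genes were 28018267, 28796369 and 30943850 in the WT libraries and 24042782, 21466853 and 26148808 in the KO libraries. At these depths 3 counts, taken as the detection floor, correspond to 2.56 to 3.80 normalized counts, where a normalized count is a raw count scaled by the trimmed mean of M values (TMM) to the mean library size. Floors cover counting error only. The first principal component held 70.5% of the variance and put the 3 KO libraries at 47.8 to 51.2 and the 3 WT libraries at -51.9 to -47.5, and no library stood apart from its group. The oocyte identity of both groups was plain: all 15 oocyte markers were present in every library, with a summed level of 550578 to 559591 normalized counts in KO and 580365 to 591785 in WT libraries. The 22 granulosa and cumulus markers summed to 3392 to 3610 in KO and 3921 to 4246 in WT libraries, and 2 to 5 of them were at 0 in a library. Most of that sum came from *Cyp19a1*, the aromatase gene, at 1746, 2064 and 2047 in WT and 1761, 1649 and 1715 in KO libraries, and from *Nr5a2*, whereas *Foxl2* and *Lhcgr* were at 0 in most libraries. These genes were picked after their values were seen. *Cyp11a1* and *Has2*, of the same list, had counts in every library and were lower in KO libraries, with values given below. Of 12 granulosa markers tested edgeR called 3 lower and 0 higher in KO oocytes (at an unadjusted p under 0.05, 4 and 1, and by DESeq2 3 and 0). Theca and stroma markers (11 genes) summed to 81.0 to 110.1 in KO and 86.4 to 112 in WT libraries, and blood and immune markers (10 genes) to 35.9 to 62.0 and 24.9 to 34.2, with 4 to 6 of either list at 0. Of the 5 and 2 of these tested edgeR and DESeq2 called 0, and 1 theca marker, *Pdgfra* (-1.72), had an unadjusted p under 0.05.

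The deposited counts carry tallies of what was not counted on a transcript, and the largest of these is the tally of alignments that were not unique. As a share of the sum of this tally, the reads outside transcripts and the counts of the 1 transcript kept per gene, it came to 50.9, 51.4 and 55.8% in the KO libraries and 37.5, 34.1 and 31.2% in the WT libraries. Every KO library lay above every WT library, with means of 52.7% ± 2.68 (SD, n = 3) and 34.3% ± 3.15 (SD, n = 3), and the 2-sided exact permutation test gave p = 0.1, the smallest that 3 against 3 allows. With the counts of all deposited transcripts in the sum, an alternative added after the data were seen, the means were 46.3% ± 2.82 and 28.4% ± 2.99 (SD, n = 3 each). The methods name reads of more than 1 length, aligned with different mismatch limits, without saying which libraries had which. Repeat-derived RNA is among the sequences that align at several places, but the tally names no sequence and may count alignments rather than reads. Reads outside annotated transcripts made up 9.65% ± 0.266 (SD, n = 3) of the first sum in KO and 10.9% ± 0.605 (SD, n = 3) in WT libraries, and the order turned when only uniquely aligned reads were the base, with 20.5% ± 1.78 (SD, n = 3) against 16.6% ± 1.72 (SD, n = 3).

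*Dicer1*, the targeted gene, (chromosome 12, 104687740 to 104751968 of GRCm38) had 26757, 26667 and 27875 normalized counts in the WT libraries and 69239.8, 64927 and 59682 in the KO libraries. The transcript was thus higher in all 3 KO libraries, without overlap, by 1.25 on the log2 scale (SE 0.063, adjusted p = 1.13e-11). Here and in what follows the test is the quasi-likelihood test of edgeR, and adjusted p-values are those of Benjamini and Hochberg over all genes tested. The count covers all exons of the transcript, so it does not show whether the deleted part was missing, and the genotype labels could not be checked with it. *Dicer1* was also higher in *Ago2* ADH than in *Ago2* fl/fl oocytes, by 0.67 on the log2 scale (SE 0.043, adjusted p = 2.75e-10). The effect in *Dicer* KO oocytes was more positive by 0.63 (SE 0.073, adjusted p = 5.19e-06).

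Of 13799 genes tested, 4726 (34.2%) were mis-regulated in the KO oocytes at a false discovery rate (FDR) of 1%. Up-regulated genes numbered 2294 (16.6% of those tested) and down-regulated genes 2432 (17.6%). The changes were uneven in size. Among mis-regulated genes 1125 rose and 642 fell at least 2-fold, 396 rose and 170 fell at least 4-fold, 136 rose and 48 fell at least 8-fold, and 53 rose and 14 fell at least 16-fold. The median log2 fold change was 0.98 for up-regulated and -0.62 for down-regulated genes, against -0.00265 for all genes tested. KO and WT libraries did not overlap for 7552 genes (54.7%). Normalized counts are shares of a library, so a change in total RNA per oocyte is not seen.

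**Figure D1:**
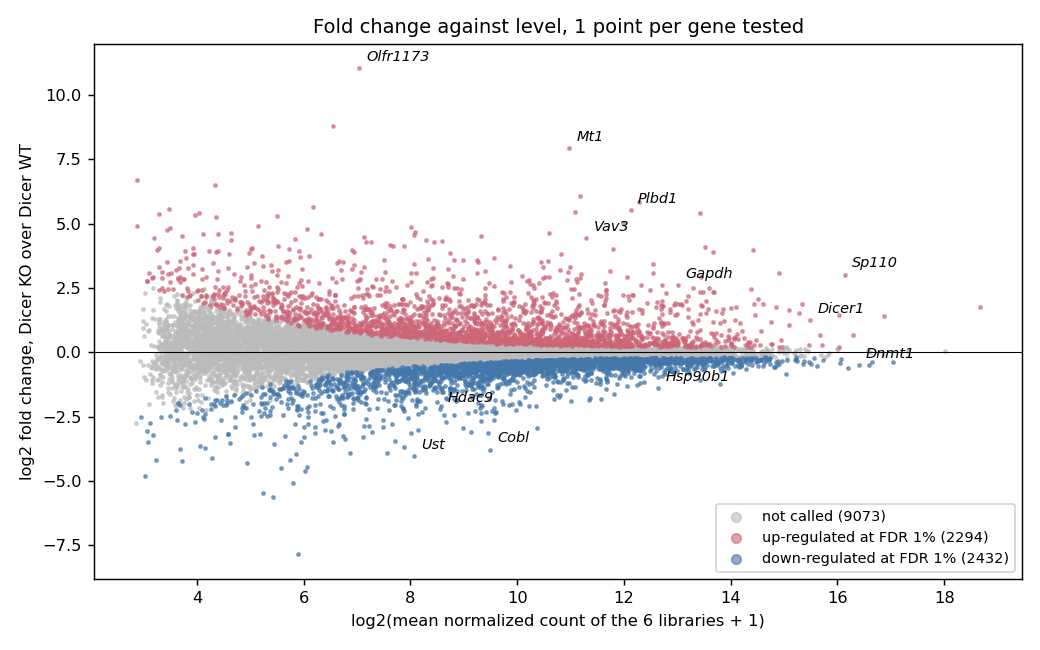
Log2 fold change of Dicer KO over Dicer WT (vertical axis) against the log2 mean normalized count of the 6 libraries plus 1 (horizontal axis) for the 13799 genes tested, with 2294 up-regulated genes in red, 2432 down-regulated genes in blue and the others in grey. More points lie far above 0 than far below it, for example Mt1 at 7.93 and Plbd1 at 5.51 against Ust at -4.03 and Cobl at -3.78.

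The largest increases, ranked among genes whose mean over the 6 libraries reached 100 normalized counts, included genes with few or no counts in WT oocytes. *Olfr1173*, an olfactory receptor gene (chromosome 2, 88274109 to 88275047), had no count in the 3 WT libraries and 251, 220.2 and 309.5 normalized counts in the KO libraries. Against the floor of 3 counts per library its mean was at least 97.6-fold higher in KO oocytes. *Mt1* (chromosome 8, 94178883 to 94180327), which encodes a metallothionein, a small cysteine-rich protein that binds zinc and copper, rose from 8.31, 20.5 and 19.6 normalized counts in the WT to 4347, 3499.6 and 4134 in the KO libraries, a log2 fold change of 7.93 (SE 0.17, adjusted p = 8.45e-17). A pair of genes of low level in WT oocytes became abundant. *Uchl4*, a ubiquitin carboxy-terminal hydrolase gene, had 257, 135 and 125 normalized counts in WT and 10290.0, 9362 and 9684 in KO libraries (log2 fold change 5.83, SE 0.16). *Plbd1*, named for a phospholipase B domain, (chromosome 6, 136612071 to 136662303) had 255, 192 and 129 in WT and 8817, 8637 and 8767 in KO libraries (log2 fold change 5.51, SE 0.14, adjusted p = 1.45e-15). In each of these genes the lowest KO library was far above the highest WT library.

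The other genes among the 12 largest increases were *1700028P14Rik*, *Tstd3*, *C130026I21Rik*, *Saxo1*, *Hmgn3*, *Armcx3*, *Mcf2* and *Gpihbp1*, with log2 fold changes from 4.54 to 6.05. *Hmgn3* encodes a nucleosome-binding protein of the HMGN family, which acts on chromatin compaction. It had 18.5, 7.12 and 25.6 normalized counts in WT and 576, 483 and 433 in KO libraries. *Mcf2* encodes a guanine nucleotide exchange factor and had 161, 101 and 99.0 and 3055, 2969 and 2859.6. *Gpihbp1*, which encodes the anchor of lipoprotein lipase on capillary endothelium, had 27.7, 23.2 and 15.4 and 604, 497 and 442. None of the 12 genes overlapped between groups, which the naming rule required.

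**Figure D2:**
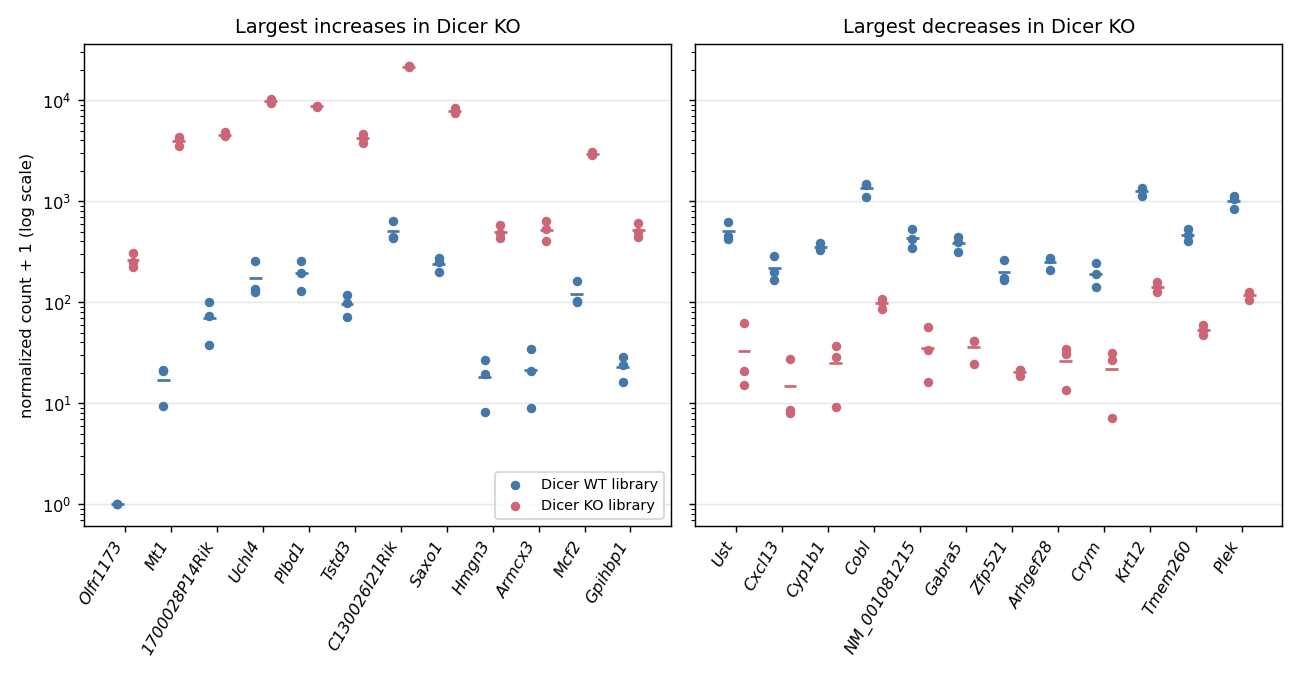
Normalized counts plus 1 (log scale) of the 12 largest increases (left) and 12 largest decreases (right) in the 3 Dicer WT libraries (blue) and 3 Dicer KO libraries (red), with a bar at the mean of each group. Libraries of 1 group lie close together against the gap between groups, as for Plbd1 at 255, 192 and 129 in WT and 8817, 8637 and 8767 in KO libraries, and the lowest KO values of the down-regulated genes, such as 6.09 for Crym, are close to the floor.

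Metallothioneins are a textbook response to zinc and other metals and to oxidants, through the factor MTF-1 bound at metal response elements in their promoters. *Mt1* and *Mt2* both rose. *Mt2* (chromosome 8, 94172618 to 94173567) had 3.69, 11.6 and 8.53 normalized counts in WT and 85.7, 75.9 and 115 in KO libraries, a log2 fold change of 3.51 (SE 0.42, adjusted p = 1.91e-06), so the KO level of *Mt1* stayed far above that of *Mt2*. Scaled per kilobase of transcript, the level of *Mt1* in KO oocytes was 274 CPM per kb and that of *Mt2* 6.78. The promoters of both genes are shown because they were searched for the core of the metal response element, TGCACNC or TGCGCNC on either strand, which is in capitals. Each run covers 250 bases before and 50 after a transcript start, 5′ to 3′ on the plus strand, from RefSeq (GRCm38.p6). For *Mt1* the start used lies inside the gene span given above, which begins at 94178883.
Mt1, chr8:94178839-94179138: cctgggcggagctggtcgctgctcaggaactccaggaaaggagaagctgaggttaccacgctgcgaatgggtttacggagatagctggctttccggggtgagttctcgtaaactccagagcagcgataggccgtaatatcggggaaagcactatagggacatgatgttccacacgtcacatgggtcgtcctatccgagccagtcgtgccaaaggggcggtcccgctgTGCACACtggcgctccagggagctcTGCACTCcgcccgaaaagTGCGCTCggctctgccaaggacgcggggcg
Mt2, chr8:94172368-94172667: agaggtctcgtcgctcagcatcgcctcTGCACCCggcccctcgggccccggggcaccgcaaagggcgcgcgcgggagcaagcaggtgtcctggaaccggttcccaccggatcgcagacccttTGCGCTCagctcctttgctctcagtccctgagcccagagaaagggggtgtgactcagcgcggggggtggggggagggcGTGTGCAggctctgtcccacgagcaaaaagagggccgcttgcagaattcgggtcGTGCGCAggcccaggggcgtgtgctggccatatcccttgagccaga
The *Mt1* run held 3 matches, starting -23, 2 and 20 bases from the start used for the run. All 3 lay inside the gene span of *Mt1*. The *Mt2* run held 4 matches, starting at -223, -128, -50 and 4. Of 32851 such promoters 25.7% held at least 1 match and 0.517% at least 4. A match is a string of letters and no evidence of binding. Of the wider list of zinc transporters and regulators, 25 were tested, the metallothioneins included, 3 of which were up- and 5 down-regulated, and the median log2 fold change was -0.093. By total counts in place of TMM this median was -0.15. The largest falls among the down-regulated members were those of the zinc importer gene *Slc39a10* (-0.65) and the zinc transporter gene *Slc30a3* (-0.55).

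Under the same limit of 100 normalized counts, the largest decreases were smaller than the largest increases and included genes of the cytoskeleton, of sulfated glycans and of signalling. *Ust* (chromosome 10, 8204753 to 8518825), which encodes a sulfotransferase of glycosaminoglycan chains, had 423, 628 and 451 normalized counts in WT and 19.7, 60.8 and 14.2 in KO libraries (log2 fold change -4.03, SE 0.33, adjusted p = 1.29e-08). *Cobl*, which encodes the actin nucleator cordon-bleu, had 1487, 1433 and 1092 in WT and 108, 84.8 and 98.4 in KO libraries (log2 fold change -3.78, SE 0.15). *Krt12*, a type I keratin gene best known from cornea, had 1351, 1294 and 1129.9 and 159, 140.5 and 126. These genes retained a small remainder in KO oocytes. *Cxcl13* (a B-cell chemokine), *Cyp1b1* (a cytochrome P450 that hydroxylates estradiol), *Gabra5* (a GABA receptor subunit), *Zfp521* (a zinc finger protein), *Arhgef28* (a guanine nucleotide exchange factor), *Crym* (a thyroid hormone-binding protein), *Tmem260* and *Plek* (pleckstrin, a protein kinase C substrate) fell by 3.11 to 3.93 on the log2 scale, as did 1 transcript without a symbol. *Plek* had 829.9, 1133 and 1061 normalized counts in WT and 125, 105 and 119 in KO libraries.

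Among the 1000 most abundant genes, increases were again larger than decreases. *C130026I21Rik*, already named, was the largest of these. *Sp110* (chromosome 1, 85570735 to 85610850), which encodes a nuclear body protein and belongs to a repeated gene cluster, so that its count is uncertain, rose from 16201, 16445 and 14707 normalized counts in WT to 133811, 126758 and 123228 in KO libraries, a log2 fold change of 3.02 (SE 0.066). *Sdhaf4*, an assembly factor of succinate dehydrogenase, went from 2867, 2329.8 and 2671 to 45797, 38106 and 39572, and *Aplf*, a DNA end-joining factor, from 8574, 5516 and 5479 to 53869, 48656 and 62520.4. The zinc finger genes *Zfp930* and *Zfp473* rose by 4.08 and 3.90, the latter encoding a protein of histone pre-mRNA processing. *Ccdc82*, picked after its values were seen because it had the highest mean of all genes in these 6 libraries, held 200570.0, 199815 and 177798 normalized counts in WT and 663050.0, 627334 and 642934 in KO libraries (log2 fold change 1.74, SE 0.063, adjusted p = 1.05e-13). The largest falls among abundant genes were those of *Hsp90b1*, *Kbtbd7*, *Fbxw16*, *Plekhg1*, *Cdc42bpa* and *Smurf2*, from -1.40 to -0.85. *Hsp90b1*, the HSP90 chaperone of the endoplasmic reticulum, went from 9274, 9064 and 9530.2 to 2948, 3729 and 3873 normalized counts, and *Smurf2*, a ubiquitin ligase that acts on TGF-beta receptors and SMADs, from 7789, 8103 and 7389.8 to 3851, 4688 and 4408.

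Beside *Dicer1*, the genes that make small RNAs mostly changed by little or did not pass the test. Of 19 genes of small RNA processing, all tested, 3 were up- and 5 down-regulated, a share of 15.8% up and 26.3% down, with a median log2 fold change of -0.17. *Drosha*, the nuclear RNase III that releases microRNA hairpins, fell from 4269, 4355 and 4721 to 3333, 3315 and 3481 normalized counts (-0.40 on the log2 scale, SE 0.065, adjusted p = 7.01e-05), and the helicase gene *Ddx5* of the same complex by 0.23. The microprocessor gene *Dgcr8* had 511, 553 and 477 in WT and 248, 465 and 419 in KO libraries and did not pass (-0.45, adjusted p = 0.0479). The gene of the hairpin exporter *Xpo5* did not pass either (-0.17), while that of its cofactor *Ran* rose by 0.99, from 1419.8, 1171 and 1243 to 2232, 2539 and 2843. Of the partners of Dicer, *Tarbp2* fell (-0.40, adjusted p = 0.0082) and *Prkra*, with 9.23, 24.9 and 1.71 and 29.0, 30.4 and 27.4 normalized counts, did not pass (1.27). The fall of *Tarbp2* lost its call with a replicate block (adjusted p = 0.0168) and when any 1 of the 6 libraries was left out (up to 0.0538, without WT replicate 2). That of *Ddx5* lost it with the block (adjusted p = 0.0229) and when KO replicate 1 or 2 or WT replicate 1 or 2 was left out (up to 0.0497, without WT replicate 1).

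Members that trim, tail or clear small RNAs moved in both directions. *Tsnax*, which encodes a subunit of the C3PO nuclease that activates RISC by removing the passenger strand, rose from 3105, 3144 and 3243 to 10099, 9933 and 10069.6 normalized counts (1.66, SE 0.059, adjusted p = 8.73e-14). Its partner *Tsn* had 1223, 1266 and 1132 and 1047, 1042 and 1155 and did not pass (-0.16). *Eri1*, an exonuclease of small RNAs and histone mRNA, fell by 0.53 (SE 0.092). *Lin28a*, which encodes an RNA-binding protein that blocks let-7 maturation, fell by 0.37 (adjusted p = 0.00457), a call that was lost without KO replicate 1 or 2 or WT replicate 2 or 3 (adjusted p up to 0.0452, without WT replicate 2). Its paralogue *Lin28b* did not pass (0.17). The terminal uridylyl transferase genes *Tut4* and *Tut7* (1.14 and -0.19), the exonuclease gene *Dis3l2* (-0.0025, with the groups overlapping), the RNA helicase gene *Ddx17* (-0.31) and the adenosine deaminase genes *Adar* and *Adarb1* (-0.15 and -0.32) did not pass.

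Of the Argonautes, *Ago2* alone passed the test. It fell from 974, 885 and 937 normalized counts in WT to 598, 554 and 737 in KO libraries (-0.56, SE 0.11, adjusted p = 0.000563). *Ago3*, the most abundant of the 4, had 5792, 5214 and 6370.0 and 5399, 4816 and 4571 and the groups overlapped (-0.23, adjusted p = 0.0211). *Ago1* and *Ago4* were low, with 41.5, 38.3 and 35.0 and 73.0, 62.0 and 73.1 normalized counts for *Ago1* and 79.4, 98.9 and 53.8 and 33.6, 55.7 and 24.4 for *Ago4* (0.86 and -1.04, adjusted p = 0.03 and 0.0246). Per kilobase of transcript the order of levels in WT oocytes was *Ago3* at 13.97 CPM per kb, *Ago2* at 2.54, *Ago4* at 0.445 and *Ago1* at 0.199. Of 16 genes, the Argonautes and the proteins that act with them, 4 were up- and 2 down-regulated. *Hsp90ab1*, a cytosolic HSP90 chaperone gene needed for loading, rose by 1.59, from 6400.0, 7067 and 6793 to 21086, 19707 and 20213 normalized counts, whereas its paralogue *Hsp90aa1* had 100509, 89721 and 107486 and 99506, 98302 and 103419 and did not pass. *Trim71*, a ubiquitin ligase and let-7 target, rose by 1.06, the helicase gene *Mov10* by 0.98 and *Fmr1* by 0.60. The nuclease gene *Snd1* fell by 0.33, which did not pass without KO replicate 1 or 3 or WT replicate 1 or 2 (adjusted p up to 0.0528, without WT replicate 2). The GW182 genes *Tnrc6a*, *Tnrc6b* and *Tnrc6c*, which carry microRNA silencing, did not pass (0.28, 0.092 and 0.13), nor did *Dhx9*, *Fkbp4* and *Fkbp5* (0.16, 0.27 and -0.24). In the piRNA pathway, 3 of 19 genes tested were up-regulated, led by *Mael* (1.00) and *Tdrd7* (0.72), and 5 were down-regulated, led by *Tdrkh* (-0.49) and *Tdrd12* (-0.48).

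**Figure D3:**
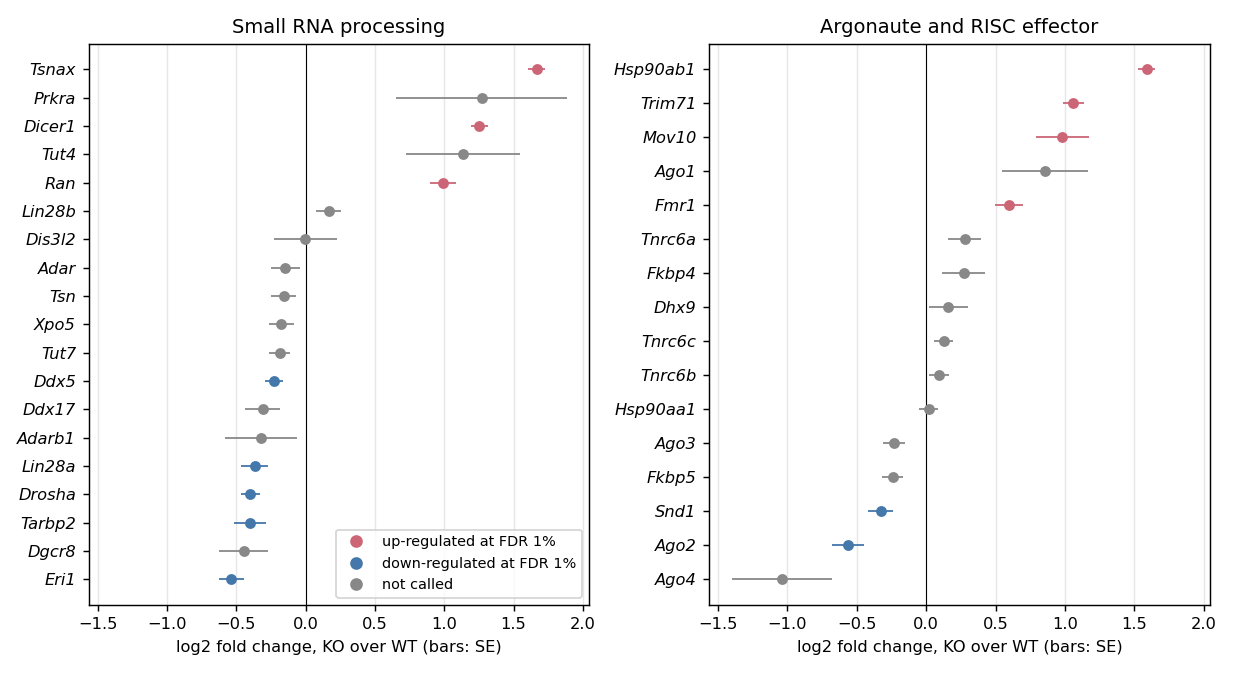
Log2 fold change of Dicer KO over WT (horizontal axis, bars are SE) for 19 genes of small RNA processing (left) and 16 Argonaute and RISC genes (right), coloured by the call at FDR 1%. Most points lie close to 0, Tsnax at 1.66 and Hsp90ab1 at 1.59 lie farthest to the right, and wide bars mark low genes such as Prkra and Ago4.

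A loss of microRNA activity would be looked for among genes whose 3′UTR matches a seed, so the seeds printed above were searched, as 7-base matches, in the 3′UTRs of 13401 tested genes for which GENCODE (release M21) gave one. Genes with a match were not more often up-regulated. For let-7e, 16.6% of 12177 genes without a match, 16.0% of 1069 with 1 and 15.5% of 155 with 2 or more were up-regulated. For miR-16 these shares were 16.9%, 15.3% and 14.9%, and for the seed of miR-20a and miR-106a 16.6%, 16.5% and 14.8%. Down-regulated genes took a larger share among genes with matches, for the last seed 17.1%, 20.8% and 25.1%. The median 3′UTR was 850 bases for genes without this match and 3492 bases for those with 2 or more, and the down-regulated share also differed with length: 13.1% of the 3351 genes with the shortest and 23.0% of the 3350 genes with the longest 3′UTRs were down-regulated, against 16.7% and 16.4% up-regulated. With the genes divided into 4 groups of rising 3′UTR length, the down-regulated share was 12.9% without and 20% with the match in the shortest group (12 of 60 genes), 15.4% and 19.4% in the next (43 of 222), 19.2% and 17.9% in the third (78 of 435), and 22.7% and 23.4% in the longest (240 of 1024). For this seed it was thus larger with the match in 3 of the 4 groups. For miR-16 the share from the shortest to the longest group was 13.2, 16.0, 19.7 and 22.0% without and 9.88, 13.5, 17.2 and 24.0% with the match. For let-7e it was 13.2, 15.8, 19.2 and 22.5% without and 7.41, 12.9, 17.2 and 24.7% with the match. For these 2 seeds it was thus smaller with the match in every group but the longest. The parts of length and match were not tested. These shares are descriptions without a test, and the search was added after the data had been seen.

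Known targets of let-7 moved both ways. Of 21 tested, 5 were up-regulated and 7 down-regulated, with a median log2 fold change of -0.16. *Igf2bp1*, an mRNA-binding protein gene, rose from 34.2, 27.6 and 20.5 to 284, 196 and 245 normalized counts (3.14), and *Hmga2*, the chromatin protein gene with many let-7 sites, from 1976, 1921 and 1946 to 5953, 5545 and 5959.8 (1.58, SE 0.065). The zinc finger gene *Plagl2* fell from 1197, 1262 and 1189.7 to 614, 725 and 825 (-0.75).

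A set of 11 genes had been picked by the study for quantitative RT-PCR from its sequencing of *Ago2* ADH oocytes and their controls. The paper does not say that the *Dicer* libraries entered this choice. It reports a close correlation between the *Ago2* ADH and *Dicer* KO changes, so these genes are no random sample. *Vav3*, a guanine nucleotide exchange factor gene, (chromosome 3, 109340465 to 109685694) rose from 211, 236 and 213 to 4800.3, 4970.4 and 4639 normalized counts (4.45, SE 0.086, adjusted p = 6.23e-17). *Rangap1*, which stimulates the GTPase RAN and so sets the RAN gradient that guides the acentrosomal spindle, rose from 204, 263 and 246 to 2768, 2792 and 2824 (3.55, SE 0.10). The KO libraries of these genes differed from each other by far less than from the WT libraries. The actin-bundling plastin gene *Lcp1* rose by 2.91, the tubulin folding cofactor gene *Tbcd* by 2.89, the autophagy receptor gene *Optn* by 2.30, and *Oog4* of the oogenesin family by 1.53. *Frmd3* fell from 123, 117 and 150.2 to 11.6, 11.4 and 27.4 (-2.91). *Gdf9*, the oocyte growth factor gene, with 113647, 132110.0 and 118540.0 and 123579, 112796 and 105244, and *Adar* did not pass, and *Stx19*, with 8.31, 9.80 and 11.1 in WT and 0, 3.80 and 0 in KO libraries, was too low to be tested.

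Single genes of the meiotic spindle rose strongly, but the list was called no more often than all genes. Of 45 genes of spindle assembly and poles tested, 7 were up- and 6 down-regulated (15.6% and 13.3%, against 16.6% and 17.6% of all genes). Beside *Rangap1*, *Haus8* of the augmin complex, which nucleates microtubules within the spindle, rose from a mean of 288 ± 31.8 (SD, n = 3) to 1439.8 ± 35.8 (SD, n = 3) normalized counts (2.32, SE 0.11), while *Haus1* of the same complex and the gamma-tubulin complex gene *Tubgcp5* fell by 0.84 and 0.61. Of 21 tubulin folding genes 2 rose and 3 fell: *Tbcd* went from 543, 524 and 576 to 4193, 3972 and 3994, the prefoldin gene *Vbp1* rose by 1.66, and *Cct4* of the TRiC chaperonin fell by 0.74. Tubulins rose more often, 8 of 17 tested against 2 that fell (47.1% and 11.8%), with a median log2 fold change of 0.30. *Tuba1c* rose from 2341, 2479 and 2342 to 6426, 6180.4 and 5775 (1.36) and *Tuba1a*, which was low, from 17.5, 11.6 and 22.2 to 101, 63.3 and 85.2 (2.27), while the testis alpha-tubulin gene *Tuba3b* fell by 2.17 and *Tubd1* by 0.90. Tubulin genes are near-identical in sequence, and uniquely aligned reads alone were counted, so the split between them is uncertain.

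Among kinesins, 6 of 34 rose and 8 fell (17.6% and 23.5%, against 16.6% and 17.6% of all genes). The minus-end motor gene *Kifc1* rose by 1.37 and the chromokinesin gene *Kif4* from 16352, 16334 and 17831 to 39339.7, 38278 and 37075 normalized counts (1.18), and the bipolar spindle motor gene *Kif11* fell by 0.54. Of 37 kinetochore and checkpoint genes, 8 rose and 5 fell (21.6% and 13.5%). *Knl1*, the outer kinetochore scaffold gene, rose from 5511, 4980.2 and 5328 to 13871, 12657 and 14235 (1.37, SE 0.065) and *Cenpt* by 0.77, and *Cenpw* and *Cenpf* fell by 0.85 and 0.59. Of 46 genes of the anaphase-promoting complex (APC/C), its partners and the cyclins, 7 rose and 7 fell (15.2% each). *Ube2c*, the ubiquitin-conjugating enzyme of the APC/C, rose from 4778, 4558 and 5103 to 19041, 18593 and 19269.6 (1.98) and *Cdk7* from 8560.0, 8524 and 6863 to 27793, 26502 and 26907 (1.76), and *Anapc13* fell by 0.81. In the pathway that holds the oocyte in prophase through cAMP, 2 of 14 genes rose and 5 fell (14.3% and 35.7%). *Prkar2a* (0.67) rose and *Prkar1a* (-0.61) fell, both regulatory subunit genes of protein kinase A, and the gap junction gene *Gja4* (-0.38) fell as well. *Mos*, the kinase gene that keeps the egg in metaphase II, fell from 5961, 6408 and 6534 to 3915, 3958 and 3787 (-0.70, SE 0.063).

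Cohesin and synapsis genes were mis-regulated in both directions, 7 of 27 up and 9 down (25.9% and 33.3%, against 16.6% and 17.6% of all genes). The synaptonemal complex genes *Sycp3* and *Sycp1*, which are active in fetal prophase, rose from 2402, 1958 and 2299 to 6008, 5698 and 6708 and from 876, 582 and 962 to 2112, 2143 and 2359 normalized counts (1.47 and 1.45). The mitotic cohesin genes *Stag2* and *Rad21* fell by 0.84 and 0.65. Of 45 actin cytoskeleton genes, 15 rose and 8 fell (33.3% and 17.8%): *Lcp1* went from 2736, 2571 and 2518 to 19204, 19244 and 20477 and the vinculin gene *Vcl* from 1805, 1484 and 1459 to 7258, 7533 and 7611 (2.24), while the non-muscle myosin gene *Myh9* fell by 0.65 and *Rdx*, the radixin gene, from 92904, 86074 and 94458 to 61099, 61404 and 57044 (-0.61).

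Genes that define the oocyte and its maternal stores fell more often than they rose, and by little. Of the 15 oocyte markers 5 fell and 1 rose (33.3% and 6.67%), against 17.6% and 16.6% of all genes. Among the 2759 genes of highest mean level 28.9% fell and 21.3% rose, and the part of level in the lists of this paragraph was not tested. *Kit*, the receptor through which granulosa cells support the oocyte, fell from 9155, 9140.1 and 9188 to 5719, 6019.6 and 6079.5 normalized counts (-0.63, SE 0.058). Of 13 genes of the subcortical maternal complex and its partners, which the early embryo needs, 7 fell and 2 rose (53.8% and 15.4%), with a median log2 fold change of -0.24. *Tle6* fell from 21596, 22310.1 and 21400.5 to 15463, 15481 and 16289 (-0.47), *Nlrp9c* by 0.41, and *Cfl1* rose by 0.32. *Ooep* rose by 0.21, which did not pass without KO replicate 1 or 2 or WT replicate 1 or 2 (adjusted p up to 0.0272, without WT replicate 2), with a replicate block (0.0281) or under scaling by total counts (0.0153). In the Nlrp family, which shares members with that list, 8 of 15 fell and 2 rose: *Nlrp4b* fell from 12452, 12386 and 12445 to 8024, 8137 and 8372 (-0.60), and *Nlrp12*, low in WT libraries at 33.2, 31.2 and 9.39, rose to 165, 68.3 and 108. The oogenesin and Pramel family, an expanded group of germline genes, had 12 of 28 down and 7 up, with *Pramel48* from 1682, 1893 and 1612 to 605, 581 and 638 (-1.51), *Oog2* down by 0.57, and *Pramel31*, at 3.69, 2.67 and 0 in WT libraries, at 64.9, 55.7 and 137 in KO libraries. Copies of these families share sequence, so their counts may be split between copies.

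Of 13 genes of the zona pellucida and egg surface edgeR called 3 lower and 0 higher (4 and 1 at an unadjusted p under 0.05, 3 and 0 by DESeq2), led by *Oosp3* (-0.54) and *Cd9*, the tetraspanin gene needed for sperm fusion, from 2033, 1872 and 2048 to 1507, 1415 and 1636 (-0.38). Of 15 growth factor and KIT pathway genes, 3 rose and 5 fell. *Fgf21*, a hormone gene of fasting liver, was at 0, 0 and 0.853 normalized counts in WT and 167, 210.1 and 181 in KO libraries, above the floor in the KO libraries alone, and the bone morphogenetic protein receptor gene *Bmpr2* rose by 0.64. *Tgfb2* fell from 11508, 10976 and 11633 to 6852, 6823 and 7267 (-0.70). In the oocyte-specific Fbxw cluster 2 of 13 rose and 4 fell, with *Fbxw16* from 15761, 14223 and 14803 to 6869.6, 7316 and 7194 (-1.07). Of 23 oocyte transcription factors, 6 rose and 5 fell: *Stat3*, the cytokine-activated factor, rose from 3009, 3553 and 3569.9 to 16345, 14897 and 14720.4 (2.18, SE 0.074, adjusted p = 4.82e-14) and *Zscan4c*, a marker of genome activation in the 2-cell embryo, from 108, 76.6 and 112 to 380.0, 302 and 399 (1.87), and *Sp1* and *Nr5a2*, the latter also among the granulosa markers, fell by 0.84 and 0.43. Among somatic markers, *Cyp11a1* and *Has2*, genes of steroid synthesis and of the cumulus matrix, were at 50.8, 42.7 and 39.3 and 54.5, 75.7 and 41.8 normalized counts in WT and 3.48, 10.1 and 4.06 and 11.6, 7.59 and 23.3 in KO libraries (log2 fold changes -2.91 and -1.98). Of the 12 granulosa markers tested, 6 had a positive log2 fold change, up to 1.69, and the median was -0.026. In the lower granulosa marker sum of the KO libraries *Nr5a2* went from a mean of 1378 to 1019 normalized counts. The part of adhering cells in these falls was not tested. Without WT replicate 2 *Has2* did not pass (adjusted p = 0.0153).

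Histone genes were more often up- than down-regulated. Of 98 core and linker histones 59 were not tested. Of the 39 tested, 15 rose and 1 fell (38.5% and 2.56%, against 16.6% and 17.6% of all genes). A positive log2 fold change was seen in 36, with a median of 0.56 against -0.00265 for all genes. The median was 0.27 for the 2760 genes of lowest mean level, and the part of level in the histone counts was not tested. *H1f4*, a linker histone gene, rose from 29.5, 41.9 and 41.8 to 343, 402 and 246 normalized counts (3.12, SE 0.24) and *H4c1* from 6.46, 5.34 and 15.4 to 54.5, 51.9 and 39.6 (2.40), while *H2aj* fell from 165, 193 and 156 to 35.9, 60.8 and 57.8 (-1.73). Replication-dependent histone mRNAs lack a poly(A) tail and are near-identical between copies, so these counts are uncertain. Of 20 DNA methylation genes 7 rose and 5 fell (35.0% and 25.0%). *Dnmt1*, the maintenance methyltransferase stored in large amounts, fell from 99683, 98579 and 104802 to 71496, 70376 and 73834 (-0.49, SE 0.056), and *Dnmt3a*, the enzyme that sets maternal imprints, from 5450.1, 5636 and 6293 to 3665, 3846 and 3353 (-0.68). The methyl-CpG binding gene *Mbd4* rose by 1.21. Of 65 histone-modifying genes 11 rose and 16 fell: *Hdac9* fell from 597, 666 and 596 to 149, 118 and 132 (-2.22) and *Hdac1* rose from 695, 533 and 603 to 2566, 2271 and 2148 (1.93), both deacetylase genes.

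Genes that store, translate or destroy maternal mRNA were spread over both directions. In mRNA storage 7 of 29 rose and 7 fell (24.1% each, against 16.6% up and 17.6% down of all genes). *Zfp36l2*, an AU-rich element binding protein gene, rose from 265, 167 and 195 to 343, 387 and 648 normalized counts (1.14), *Cpeb2* rose by 0.89, and *Zar1*, a maternal effect gene, fell from 25648, 26860.2 and 24446 to 19480.4, 19873 and 20704 (-0.36). In deadenylation, decapping and decay 8 of 45 rose and 12 fell (17.8% and 26.7%). The exosome genes *Exosc9* and *Exosc2* rose by 1.45 and 0.71, and *Upf2* and *Smg1* of nonsense-mediated decay fell by 0.64 and 0.63. Among cytosolic ribosomal proteins 21 of 81 rose and 5 fell (25.9% and 6.17%), with 56 of 81 above 0 and a median of 0.12 (0.054 by total counts). *Rps23* stood out, from 474, 396 and 358 to 3777, 3414 and 3499 (3.12, SE 0.10), and *Rps6* rose by 1.07, while *Rpl38* fell by 0.67. Ribosomal protein genes and *Gapdh* have many processed pseudogenes, whose reads were not separated here. Mitochondrial ribosomal proteins had 7 of 77 up and 6 down (9.09% and 7.79%), with *Mrpl9* the largest rise (684, 683 and 580.3 to 3617, 3731 and 3472, 2.47). Translation initiation factors fell more often than they rose, 14 of 54 against 5 (25.9% and 9.26%), led by *Eif4e3* (-0.68). Of 75 spliceosome and hnRNP genes 10 fell and 5 rose (13.3% and 6.67%), both below the shares of all genes, led by *Prpf39* (-0.85) and *Snrpb* (1.19). By total counts 20 of them fell and 3 rose.

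Stress genes were mis-regulated in both directions. In the list of double-stranded RNA sensing and interferon response, the pathway that meets uncut double-stranded RNA in somatic cells, 5 of 29 tested genes rose and 6 fell (17.2% and 20.7%), close to all genes. *Oas3*, an oligoadenylate synthetase gene, rose from 3583, 3205 and 3785 to 11796, 11120.4 and 11226 normalized counts (1.69, SE 0.068) and *Irf3* by 0.98, and the sensor gene *Tlr3* fell from 728, 627 and 614 to 312, 310.1 and 208 (-1.25). Heat shock and unfolded protein genes were often mis-regulated, 9 of 34 up and 11 down (26.5% and 32.4%, against 16.6% and 17.6% of all genes). The cytosolic chaperone genes *Hspb1* and *Hsp90ab1* rose by 2.52 and 1.59, and the endoplasmic reticulum chaperone genes *Hsp90b1* and *Pdia4* fell by 1.40 and 1.06. Further members, picked after their values were seen, were *Hspa1a*, up by 1.32, and the endoplasmic reticulum genes *Hspa5*, *Calr*, *Pdia3*, *Canx* and *Pdia6* down by 1.02, 0.91, 0.84, 0.75 and 0.51 and *Dnajb9* up by 0.62.

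In the p53 and DNA damage list 9 of 26 rose and 8 fell (34.6% and 30.8%, against 16.6% and 17.6% of all genes). *Pmaip1*, which encodes the pro-apoptotic protein Noxa, rose from 16.6, 11.6 and 17.1 to 214, 201 and 266 (3.90, SE 0.27), and of the sestrin genes *Sesn2* rose by 1.71 and *Sesn1* fell from 66.5, 55.2 and 65.7 to 4.63, 2.53 and 27.4 (-2.37). Of 36 oxidative stress genes 9 rose and 4 fell (25.0% and 11.1%). The heme oxygenase gene *Hmox1* rose from 31.4, 35.6 and 23.9 to 204, 104 and 127 (2.25) and *Gpx1* by 1.56, whereas *Nfe2l2*, which encodes the master regulator NRF2, fell from 1731, 1965 and 1726 to 563, 673 and 623 (-1.54, SE 0.10). Autophagy genes had 7 of 37 up and 6 down (18.9% and 16.2%), close to all genes, with *Optn* from 549, 566 and 538 to 2648, 2691 and 2775 and *Atg4c* from 90.5, 82.8 and 128 to 24.3, 31.6 and 39.6. The nuclear pore list had 5 of 30 up and 6 down, led by *Nup43* (0.97), and the egg calcium signalling list 6 of 29 up and 4 down, with the store-operated channel gene *Orai3* up by 1.59 and *Itpr1*, the receptor that releases calcium at fertilization, down from 6880.0, 6952 and 7720.1 to 4858, 5094 and 5203 (-0.51).

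Glycolysis was the list with increases and no decrease. Of 18 genes tested edgeR called 7 higher and 0 lower (11 and 1 at an unadjusted p under 0.05, 7 and 0 by DESeq2), 38.9% against 16.6% of all genes, and 16 had a positive log2 fold change, with a median log2 fold change of 0.36. *Gapdh* rose from 2052, 2419.7 and 2515 to 14289.6, 13614 and 14479.9 normalized counts (2.60, SE 0.075, adjusted p = 5.85e-15) and the hexokinase gene *Hk2*, which was low, from 55.4, 54.3 and 44.4 to 114, 88.6 and 119.7 (1.06), a call lost without KO replicate 1, KO replicate 3 or WT replicate 3 (adjusted p = 0.0120, 0.0158 and 0.0162). The full-grown oocyte itself is known to rely on pyruvate from its cumulus cells. In the citric acid cycle 5 of 28 rose and 2 fell: *Sdha*, the catalytic subunit of succinate dehydrogenase that *Sdhaf4* helps to assemble, rose from 2836, 2775 and 2767 to 4551, 4427 and 4524 (0.69). Of 83 subunits of oxidative phosphorylation, 4 rose and 8 fell (4.82% and 9.64%), *Atp5g3* rising by 1.27 and *Atp5k* falling from 2909, 2946 and 2512 to 1338, 1120.1 and 1246 (-1.17). Cholesterol synthesis had 6 of 25 up, led by *Cyp51* and *Sc5d* (1.14 and 1.10), and 4 down, led by *Insig2* and *Msmo1* (-1.27 and -1.20).

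Genes of protein degradation changed in both directions. Of 34 ubiquitin-conjugating enzymes 9 rose and 4 fell (26.5% and 11.8%, against 16.6% and 17.6% of all genes). *Ube2r2*, a partner of cullin ligases, rose from 354, 321 and 349.9 to 2610.4, 2607 and 2375 normalized counts (2.89, SE 0.091) and *Ube2v1* from 559, 679 and 568 to 2732, 2807 and 2807 (2.21). Of 48 ubiquitin-specific proteases, which remove ubiquitin, 16 fell and 3 rose (33.3% and 6.25%), with a median of -0.14 (-0.21 by total counts): *Usp51* and *Usp29* fell by 0.96 and 0.82, and *Usp7* rose by 0.53. By total counts 8 ubiquitin-conjugating enzymes rose and 8 fell. Of 45 Trim ligases 11 rose and 3 fell (24.4% and 6.67%, and 8 and 7 by total counts), led by *Trim62* and *Trim30a* (1.71 and 1.62). Of 44 proteasome subunits 5 rose and 1 fell (11.4% and 2.27%), both below the shares of all genes, led by *Psme2* (1.13). By total counts 3 of these subunits rose and 2 fell. Of 48 Rab GTPases, 5 rose and 9 fell (10.4% and 18.8%). *Rab11b*, a GTPase of recycling vesicles, rose from 496, 459.5 and 500.1 to 3442, 3246 and 3639 (2.83) and *Rab3b* fell from 1155, 1116 and 1337 to 329, 246 and 432 (-1.83).

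Among the largest families, of 333 C2H2 zinc finger genes, 48 rose and 70 fell (14.4% and 21.0%). *Zfp930* rose from 1408, 1275 and 1241 to 24355, 21937 and 20044 normalized counts and *Zfp473* from 1687, 1486 and 1708 to 25063, 24423 and 23592, and *Zfp385b* fell from 241, 302 and 288 to 25.5, 30.4 and 39.6 (-3.11). Of 275 solute carriers, 64 rose and 42 fell. *Slc7a3*, a carrier of cationic amino acids, rose from 0, 8.91 and 4.27 to 125, 139 and 116 and *Slc1a5*, a glutamine carrier, from 1.85, 12.5 and 6.83 to 92.7, 132 and 109, whereas *Slc17a6*, a vesicular glutamate carrier of neurons, fell from 111, 114 and 123 to 0, 0 and 1.01. Of 1101 olfactory receptor genes only 50 were high enough to be tested, 11 of which rose and 8 fell, among them *Olfr1299* from 77.5, 92.6 and 75.1 to 1.16, 2.53 and 1.01 and *Olfr1463* from 108, 134 and 104 to 5.79, 11.4 and 17.3.

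**Figure D4:**
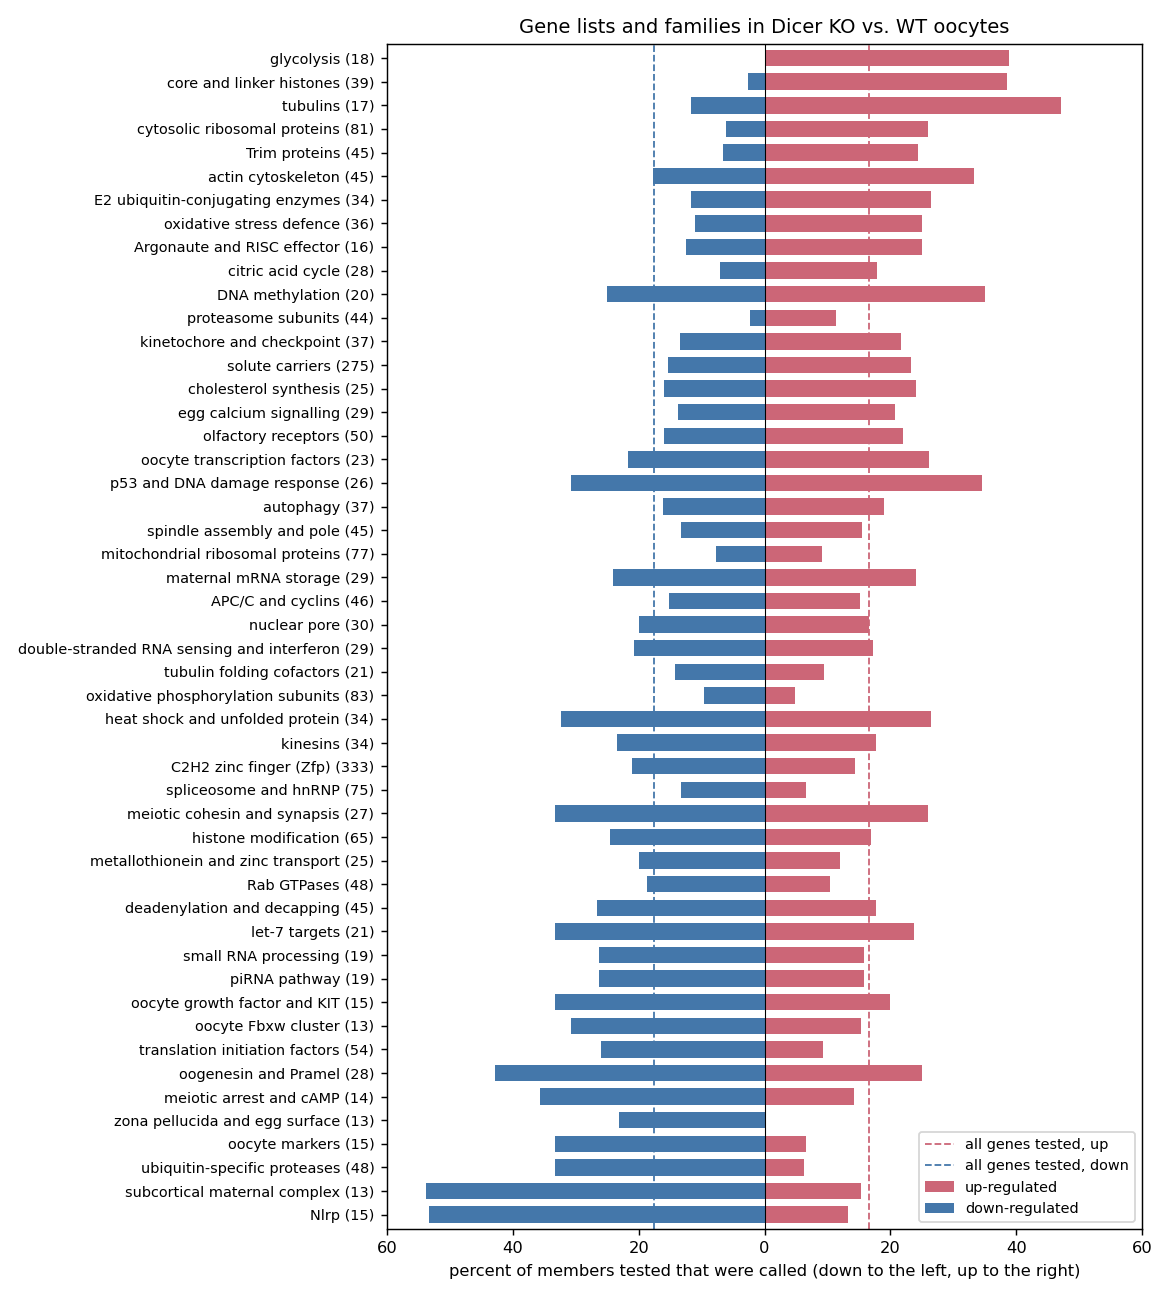
Percent of the tested members of each list or family that were up-regulated (red, to the right) or down-regulated (blue, to the left) at FDR 1% in Dicer KO vs. WT oocytes, with the number tested in brackets and dashed lines at the share of all genes, 16.6% up and 17.6% down (lists of under 13 tested members are not drawn). Glycolysis, histones and tubulins lead on the right and the Nlrp genes and the subcortical maternal complex on the left.

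Level and length of a gene went with how often it was called. Among the 2760 genes of lowest mean level 8.41% were up- and 4.13% down-regulated, and among the 2759 of highest mean level 21.3% and 28.9%. Among the 2714 genes of shortest transcript 17.8% were up- and 10.7% down-regulated (median log2 fold change 0.071), and among the 2714 of longest transcript 16.4% and 25.8% (-0.080). Short transcripts include histones and ribosomal proteins, and the part of length in their counts was not tested. On the X chromosome 111 of 482 genes (23.0%) were up-regulated, the highest share of any chromosome. Near the deleted gene, of 16 tested genes within 1 Mb of *Dicer1*, 1 rose and 5 fell, and of 109 within 10 Mb 16 rose and 16 fell. The riser was *Tcl1b4* (0.81), and its oocyte-expressed relatives *Tcl1b5* and *Tcl1b3* fell by 0.98 and 0.38.

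The Dicer effect was then tested against the *Ago2* ADH effect, that of strongly reduced AGO2 cleavage. The measure was KO over WT minus ADH over fl/fl, in 1 fit of 12 libraries that share no control. Of 14526 genes tested, 541 (3.72%) differed at FDR 1%, 350 (2.41%) with a more positive and 191 (1.31%) with a more negative effect in *Dicer* KO oocytes. Of these, 398 were also mis-regulated in *Dicer* KO oocytes: 253 rose by more than in *Ago2* ADH oocytes, 33 rose by less, 101 fell by more and 11 fell by less. For 158 of the 398 the *Ago2* ADH comparison by itself passed no test. Whether the 4 groups were collected and sequenced together is not given in the sources used here, so a difference between the effects and one between collections cannot be told apart.

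One such gene was *Plbd1*, with a log2 fold change of 5.51 in *Dicer* KO and 0.10 in *Ago2* ADH oocytes (difference 5.46, SE 0.31, adjusted p = 2.73e-11). *Myo10*, a myosin gene of filopodia, rose from 3264, 3657 and 3062 to 12584, 12456 and 12724 normalized counts in *Dicer* KO oocytes (1.92) and was at -0.24 in *Ago2* ADH (difference 2.21, SE 0.081). *Fam47e* had 1.89 and -1.08, *Ube2r2* 2.89 and 0.80, and *Akap6*, an anchor of protein kinase A, fell less in *Dicer* KO (-0.69) than in *Ago2* ADH oocytes (-3.26, difference 2.62). Its fall in *Dicer* KO oocytes passed neither without KO replicate 2 or 3 nor without any 1 of the WT libraries (adjusted p = 0.0126 to 0.0268). In the other direction *Isg20*, an interferon-induced exonuclease gene, fell from 141, 210.2 and 135 to 40.6, 58.2 and 44.7 (-1.76) and had 1.63 in *Ago2* ADH oocytes (difference -3.35, adjusted p = 3.88e-05). *Gdpd3* (-1.78 and 1.27), *Top3a*, a topoisomerase gene, (-1.53 and 1.08), *Kctd21* (-2.27 and 0.38) and *Crym* (-3.24 and -0.58) also had a more negative effect in *Dicer* KO oocytes. By contrast the difference for *Mt1* did not pass (0.73, adjusted p = 0.109), nor did those for *Rangap1* (0.18), *Lcp1* (0.19) and *Tbcd* (0.11). Of the kinetochore and spindle genes, *Knl1* and *Haus8* rose by more in *Dicer* KO oocytes (differences 1.08 and 2.01, adjusted p = 2.69e-08 and 5.29e-11). *Hdac9* fell by 2.22 in *Dicer* KO and was at -0.16 in *Ago2* ADH oocytes (difference -2.01, adjusted p = 1.8e-08).

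**Figure D5:**
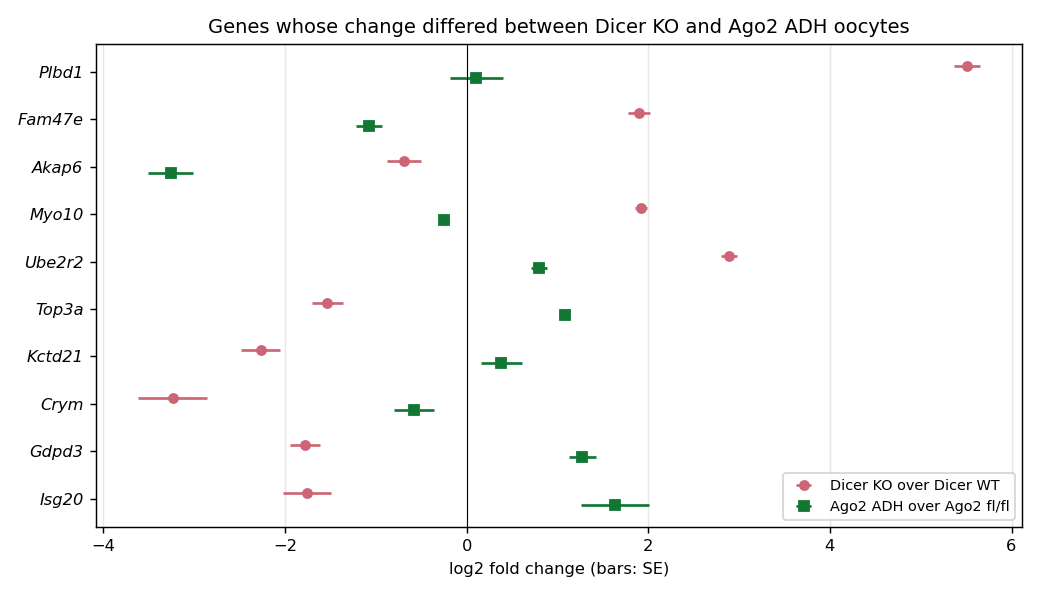
Log2 fold change (horizontal axis, bars are SE) of Dicer KO over WT (red circles) and of Ago2 ADH over Ago2 fl/fl (green squares) for the 5 most positive and 5 most negative differences among genes called in Dicer KO and in the test of the difference. Plbd1 lies at 5.51 in Dicer KO and at 0.10 in Ago2 ADH oocytes, and Isg20, Gdpd3 and Top3a lie on opposite sides of 0 in the 2 comparisons.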

How the data were processed

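RNA of 20 oocytes per library was amplified as cDNA (NuGEN Ovation V2), sheared to 200 bp and sequenced on an Illumina HiSeq instrument. The authors aligned reads with TopHat (TopHat2 2.0.7 in the submitters' processing notes) to the mm10 genome, kept up to 100 alignments per read, and counted reads on RefSeq transcripts without strand with htseq-count (HTSeq 0.6.1). They tested with DESeq (1.10.0 in those notes). The values deposited by the authors are whole-number counts per transcript, with 5 summary lines that were kept out of library sizes and tests. Reads aligned at several places were not counted, so near-identical genes are uncertain, and antisense transcripts cannot be told apart.

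Of 26495 transcripts, 26081 were matched to a RefSeq gene and 113 through GENCODE M21 only. Each gene was represented by 1 transcript, the one whose mean count in the 14 libraries of the series was highest. Genes were filtered with filterByExpr (minimum count 10, minimum total 15), scaled by TMM and tested, KO against WT in 6 libraries, with edgeR 4.0.16 (R 4.3.3), quasi-likelihood test, 2-sided, Benjamini-Hochberg adjustment over all genes tested, FDR 1%. Normalized counts are scaled to a mean library of 26558171 counts. The difference between the Dicer and *Ago2* ADH effects was an interaction in a fit of 12 libraries. Depth was 21466853 to 30943850 gene counts, so 3 counts correspond to 0.0969 to 0.140 CPM. Libraries of a group correlated at 0.984 to 0.988 (Pearson's r of log2 values across genes, which are not independent replicates) and differed beyond counting noise, so none was a duplicate. Whether the pools shared animals is not given in the labels, so p-values measure the spread between pools, which may be partly technical.

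Named genes were the 12 largest increases and decreases among genes whose groups did not overlap and whose mean reached 100 normalized counts, the 6 largest each way among the 1000 most abundant genes, the 2 largest called each way in each list, all members of the lists of small RNA genes and of qRT-PCR genes, the metallothioneins, the 5 largest differences each way from *Ago2* ADH, and genes within 1 Mb of *Dicer1*. Other genes, such as the markers named beside their sums, were picked after their values were seen. Some genes that this rule names are not reported here. The members and lists were chosen with earlier results of these data known. Fits were tested on simulated data. Alternatives were DESeq2 1.42.0, RLE scaling, total counts, other filters, all transcripts, all groups in 1 fit, an FDR of 5%, a replicate block and leaving out each library. Libraries labelled *Ago2* null entered the choice of transcript and the fits of all groups, and their values are not reported here.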

Additional observations from a re-analysis of the deposited data

Results flagged for a closer look

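For 10 named genes the effect of losing Dicer differed from that of strongly reduced AGO2 cleavage by a test of the difference itself. Differences are on the log2 scale, as *Dicer* KO over WT minus *Ago2* ADH over fl/fl. The difference was positive for *Plbd1* (5.456), *Fam47e* (3.017), *Akap6* (2.618), *Myo10* (2.212) and *Ube2r2* (2.141). It was negative for *Isg20* (-3.35), *Gdpd3* (-3.009), *Crym* (-2.616), *Kctd21* (-2.61) and *Top3a* (-2.558). Of the 5 negative ones, 4 lie on chromosome 7, where 19 of 1122 genes tested (1.69%) were called with a negative difference, against 0.728 to 2.69% over the other autosomes and X. The groups share no library, and what else differed between their collections was not tested.

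Alignments that were not unique lie outside the gene comparison. As a share of the sum of these alignments, reads outside transcripts and gene counts they were higher in KO than in WT libraries by 18.45 percentage points, with no overlap between the groups. The *Ago2* fl/fl libraries held 39.3 to 40.9% and the *Ago2* ADH libraries 63.2 to 63.9%. Which sequences these alignments come from was not tested.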

How the results depend on the processing

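The number of genes called in *Dicer* KO vs. WT oocytes lay between 4184 (replicate block) and 6412 (all transcripts) under the 10 alternatives that leave out no library, and between 3835 and 4336 when 1 library was left out, in each case within 1.5 times 4726. Scaling by total counts shifted the median of all genes by -0.0676 and gave 1988 up- and 2938 down-regulated genes. The replicate numbers were shared between groups, but libraries with the same number did not deviate together (correlations of -0.0843, 0.0305 and -0.121), so the block is no paired analysis. It called 4184 genes in place of 4726, and 422 in place of 541 for the difference from *Ago2* ADH. That difference depended more on the processing. DESeq2 called 869 genes (464 positive and 405 negative). Without 1 library the count ranged from 349 to 704, with 227 to 400 positive and 112 to 304 negative. It was 349 (227 and 122) without *Ago2* ADH replicate 1, 357 (245 and 112) without *Ago2* fl/fl replicate 2, and 704 (400 and 304) without *Dicer* KO replicate 3, and negative calls numbered 123 without *Ago2* ADH replicate 3 and 126 without *Dicer* KO replicate 1. The cause was not tested.

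Of 274 named genes, 242 were called, 30 of these lost the call under at least 1 alternative, 10 of them under one that leaves out no library, and 0 changed direction. Direction turned only among uncalled genes. *Dis3l2* went to 0.00389 (DESeq2), 0.00207 (RLE), 0.00361 (at least 10 counts in every library), 0.000569 (all transcripts), and from -0.153 to 0.237 without 1 library (0.168 without WT replicate 3 and 0.237 without KO replicate 3). *Hsp90aa1* went to -0.0469 (total counts) and -0.0051 (no filter), and ranged from -0.0451 (without WT replicate 2) to 0.0708 without 1 library, being -0.00426 without KO replicate 3. *Gskip*, a neighbour of *Dicer1*, ranged from -0.102 to 0.0309 (without WT replicate 2). The share of reads outside transcripts turned from -1.23 to 3.88 percentage points when uniquely aligned reads were the base. Without 1 library it ranged from -1.53 to -0.924, and the difference in alignments that were not unique from 16.9 to 20.1 (17.9 with all transcripts in the base, added after the data were seen). Of 1728 counts of list members under an alternative, 124 moved by over 1.5 times. Scaling by total counts shifted list medians by -0.0696 to -0.0565. At this depth, most genes that reached 10 counts in fewer than 3 of the 6 libraries were not tested.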
